A study of Mus musculus with 12 samples.

Results

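The genes described here were 35 members of the glutamatergic postsynapse, 22 glutamate receptor genes and 13 scaffold genes. They were chosen by name from a series table of 54232 genes, with earlier results of these data known. All 35 were found in the table by Ensembl identifier. They comprised the AMPA receptor subunits Gria1 to Gria4, the NMDA receptor subunits Grin1, Grin2a, Grin2b, Grin2c, Grin2d and Grin3a, the kainate receptor subunits Grik1 to Grik5, the delta receptor Grid1 and the metabotropic receptors Grm2, Grm3, Grm4, Grm5, Grm7 and Grm8. The scaffolds were Shank1 to Shank3, Homer1 to Homer3, Dlg1 to Dlg4, Dlgap1, Dlgap3 and Dlgap4. RNA was measured in 12 libraries, each from a small pool of retinal cells taken from adult, male, wild-type mice. All mice had undergone optic nerve crush, which damages the axons of retinal ganglion cells. An AAV2 vector carrying GFP, the control, or Olig1, which encodes a transcription factor of the basic helix-loop-helix class, had been injected into the vitreous. Cells were enriched on CD90.2 beads and picked 7 or 14 days after the crush. Each virus at each day formed a group of 3 libraries, 4 groups in all, and every animal had received a vector and a crush, so no group showed the uninjured retina. The labels name neither the promoter of the vector nor the animals behind each pool, and p-values rest on the spread from library to library, which can be technical.

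Glutamate released by a presynaptic cell opens AMPA, kainate and NMDA receptors, which are ion channels built from several subunits each, and it also acts on metabotropic receptors, which signal through G proteins. Below the membrane, proteins of the Dlg family hold the receptors, Dlgap proteins link Dlg to Shank, and Homer proteins join Shank to group I metabotropic receptors. In the retina, ganglion cells receive glutamate from bipolar cells chiefly through AMPA and NMDA receptors, and OFF bipolar cells receive it from photoreceptors through AMPA and kainate receptors.

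Promoter sequences are shown for the members whose Olig1 and GFP libraries did not overlap and for which the RefSeq promoter table on GRCm38.p6 has an entry. These are the 250 bases before an annotated start, printed 5′ to 3′ on the strand of the gene, in lower case with each CANNTG in capitals. This palindromic motif, read alike on both strands and called an E-box, is the kind of site that basic helix-loop-helix factors bind. Homer2 has 2 annotated starts on the minus strand, with windows at chr7:81706926-81707175 and at chr7:81692966-81693215. The window of Gria4 lies at chr9:4796235-4796484 and that of Grik5 at chr7:25072370-25072619, both on the minus strand. The bases just after the Grik5 start were found in no GENCODE M21 transcript of that gene.
Homer2, first start: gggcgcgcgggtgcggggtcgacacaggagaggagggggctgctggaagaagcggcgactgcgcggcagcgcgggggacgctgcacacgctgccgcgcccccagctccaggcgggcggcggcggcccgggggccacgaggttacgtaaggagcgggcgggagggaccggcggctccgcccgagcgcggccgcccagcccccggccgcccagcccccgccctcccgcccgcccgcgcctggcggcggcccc
Homer2, second start: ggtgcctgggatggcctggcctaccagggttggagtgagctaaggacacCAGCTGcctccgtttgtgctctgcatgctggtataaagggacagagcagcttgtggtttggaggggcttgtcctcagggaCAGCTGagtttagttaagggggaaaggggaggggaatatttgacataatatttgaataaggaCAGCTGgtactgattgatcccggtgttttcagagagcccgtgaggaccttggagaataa
Gria4: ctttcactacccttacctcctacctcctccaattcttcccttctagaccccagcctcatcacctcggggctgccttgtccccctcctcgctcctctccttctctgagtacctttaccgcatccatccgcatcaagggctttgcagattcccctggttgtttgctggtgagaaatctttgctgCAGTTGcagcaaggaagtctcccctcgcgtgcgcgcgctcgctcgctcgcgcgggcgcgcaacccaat
Grik5: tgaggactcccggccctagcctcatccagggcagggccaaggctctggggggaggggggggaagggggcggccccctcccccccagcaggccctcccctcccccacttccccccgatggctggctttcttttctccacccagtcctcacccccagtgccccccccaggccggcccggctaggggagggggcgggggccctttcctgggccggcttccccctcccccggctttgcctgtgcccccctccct
The window before the second Homer2 start held 3 such motifs, that of Gria4 held 1, and those of the first Homer2 start and of Grik5 held 0. Of all 32851 promoters listed there, 66.2% held at least 1 in the same window, as did 22 of the 38 promoters of the 24 members with an entry (57.9%). A match describes letters and does not show that a factor bound there. No entry was found for Shank1, Gria3, Grik1 or Grin2a.

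Total counts per library were 12534515 to 18770886 at day 7 and 18798849 to 27602459 at day 14, so all 6 day 14 libraries lay above all 6 day 7 libraries. A gene with 0 counts in a library could stand at up to 0.109 to 0.239 CPM (counts per 1000000 counts of the library), the level of 3 counts. Such limits and the counting intervals below cover counting error only. The vector gene Olig1 stood at 0 to 0.351 CPM in the 6 GFP libraries and at 56.4 to 1029 CPM in the 6 Olig1 libraries. The pools are labelled as ganglion cells. Of 14 ganglion cell markers 6 to 10 had counts in the GFP libraries, with sums of 71.1 to 311 CPM. All 14 except Pou4f3 and Isl2 had counts in each Olig1 day 7 library, where the sum was 3231 to 4895 CPM. At day 14 with Olig1 the sum was 247, 3769 and 195 CPM in replicates 1, 2 and 3. Pou4f2, a transcription factor that defines ganglion cells, was at 0 in all 6 GFP libraries and in Olig1 day 14 replicates 1 and 2, and Pou4f3 was at 0 in all 12. The 12 rod markers summed to 4515 to 58385 CPM with GFP and to 598 to 12701 CPM with Olig1, and Müller glia markers to at least 42201 CPM in every library. The 10 microglia and macrophage markers summed to 839 to 5395 CPM in 4 libraries, GFP day 7 replicate 3, Olig1 day 7 replicate 3 and GFP day 14 replicates 2 and 3, and to at most 33.3 CPM elsewhere. The 4 B and plasma cell markers summed to 132491 CPM in GFP day 14 replicate 3, which lowers the CPM of all other genes there, and to at most 67.3 CPM elsewhere. The labelled cell type was thus not borne out by its markers in the GFP pools and in Olig1 day 14 replicates 1 and 3. The part these markers play in the results below was not tested, and in such pools fewer cells of a type and less RNA per cell cannot be told apart.

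In the 12 libraries the 35 members together took 406 to 2216 CPM. At day 7 their sum was 960 ± 347 CPM in the GFP group and 1734 ± 419 CPM in the Olig1 group (mean ± SD, n = 3). At day 14 it was 473 ± 70.6 CPM in the GFP group and 617 ± 119 CPM in the Olig1 group. The number of members at 1 CPM or more was lowest in GFP day 14 replicate 1 (14 members) and highest in Olig1 day 7 replicate 3 (28 members). Divided by exon length, which allows levels to be compared between genes, the highest mean levels over the 12 libraries were those of Shank1 (12.6 CPM per kb), Gria2 (12.1), Dlgap4 (11.5), Gria4 (11.3) and Gria3 (11.3). These differed by less than their spread between libraries, and Grik1 (4.33) and Dlgap1 (4.26) followed. The mean of Shank1 rested on day 7, and its group means ran from 0.888 CPM per kb (GFP day 14) to 37.4 CPM per kb (Olig1 day 7). By the median over the 12 libraries the order was Gria2 (8.60), Gria4 (7.62), Dlgap4 (6.2), Gria3 (5.03), Dlgap1 (4.20), Dlg1 (3.06) and Shank1 (2.80). Within a group, members at 1 CPM or more in all 3 libraries differed between the highest and the lowest library by a median of 3.97-fold (GFP day 7), 4.79-fold (Olig1 day 7), 3.62-fold (GFP day 14) and 2.62-fold (Olig1 day 14), against 3.09, 4.84, 3.10 and 2.94-fold over all such genes. In the filter for the test, 28 members passed and 7 did not. The 7 were Grin2a, Grin2c, Grin3a, Grik4, Grm2, Grm3 and Grm4, which had 22 to 171 counts in all 12 libraries together.

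**Figure D1:**
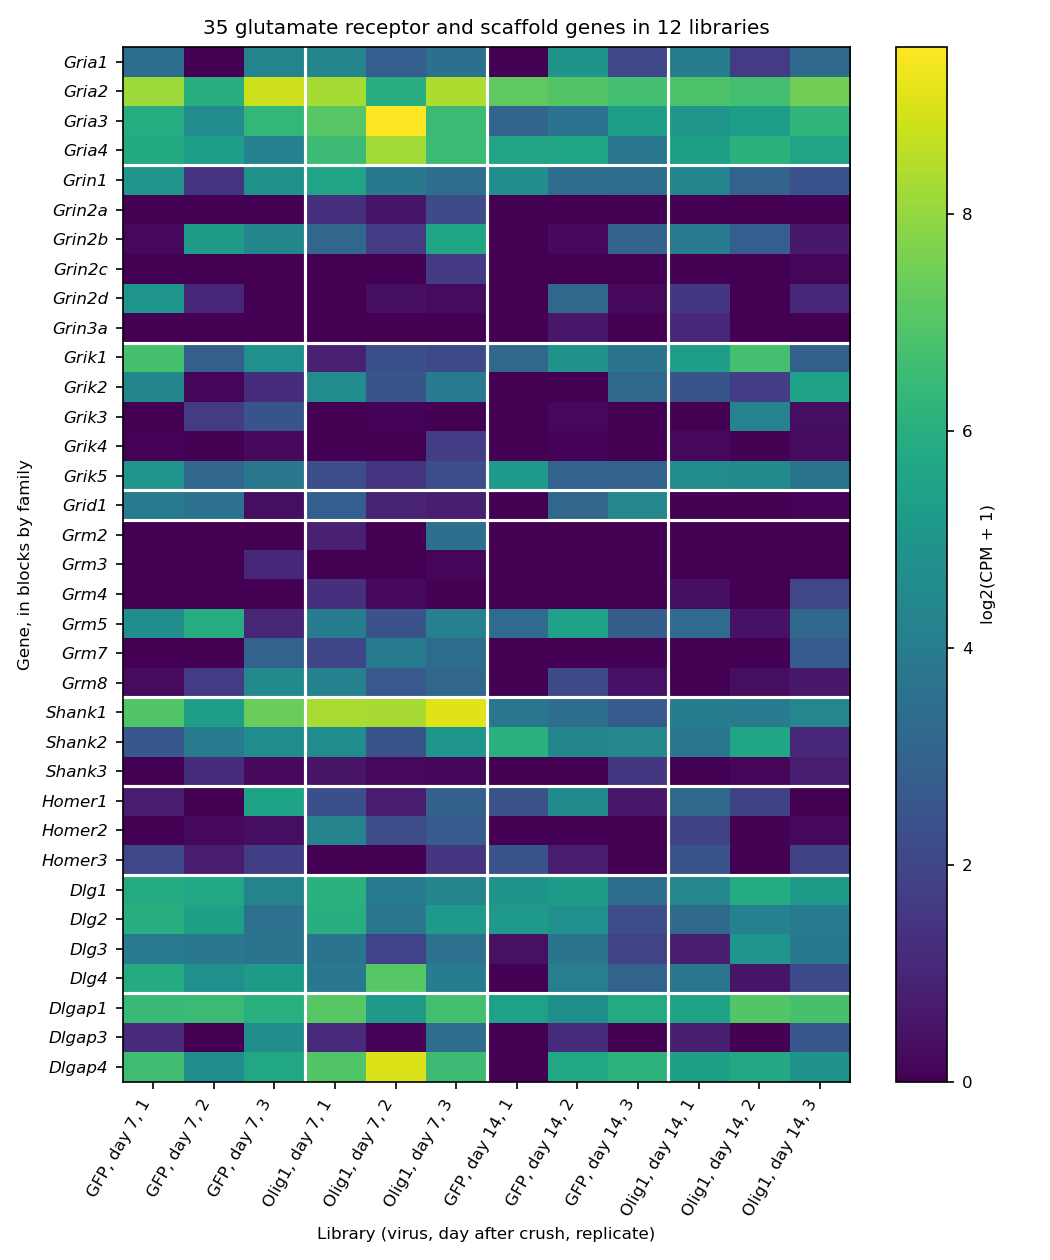
Level of each of the 35 genes (rows, in blocks by family) in each of the 12 libraries (columns, in blocks by group), as colour on a log2(CPM + 1) scale. Gria2 was present throughout, Shank1 was bright in the 6 day 7 libraries, and Olig1 day 7 replicate 2 held the highest Gria3, Gria4, Dlg4 and Dlgap4.

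AMPA receptors carry most fast excitation, and Gria2 encodes the subunit that keeps calcium out of the channel. Gria2 (ENSMUSG00000033981, chr3:80681450-80802835, GRCm38) was at 61.8 CPM or more in every library. It was measured at 283, 62.4 and 447 CPM in the GFP libraries and at 305, 61.8 and 329 CPM in the Olig1 libraries of day 7. The day 14 values were 142, 125 and 101 CPM (GFP) and 118, 103 and 178 CPM (Olig1). The groups overlapped in each comparison of the viruses, and the log2 fold change of Olig1 over GFP at day 7 was -0.11 ± 0.62 (SE; edgeR adjusted p = 0.976). Its sign was positive without Olig1 day 7 replicate 2 (0.22) or GFP day 7 replicate 3 (0.50).

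Gria3 (ENSMUSG00000001986, chrX:41400854-41678601) and Gria4 (ENSMUSG00000025892, chr9:4417896-4796234), further pore-forming AMPA subunits, were higher in each Olig1 library than in each GFP library at day 7. Gria3 was measured at 59.7, 23.4 and 79.1 CPM in the GFP libraries and at 134, 746 and 88.8 CPM in the Olig1 libraries. Gria4 was measured at 54.9, 39.6 and 17.3 CPM in the GFP libraries and at 92.9, 297 and 89.4 CPM in the Olig1 libraries. Both were led by Olig1 day 7 replicate 2, the library in which Gria2 was lowest. The log2 fold changes of 3.24 ± 1.03 for Gria3 and 2.59 ± 0.82 for Gria4 did not pass the test (edgeR adjusted p = 0.235 and 0.233). Without that library they were 0.98 and 1.17. At day 14 the libraries overlapped, with Gria3 at 7.61, 11.5 and 38.9 CPM with GFP and at 32.2, 39.4 and 76.1 CPM with Olig1.

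Gria1, an AMPA subunit best known from synaptic plasticity, overlapped between all 4 groups. It stood at 9.86, 0 and 18.6 CPM in the GFP day 7 libraries and at 0.0392, 29.5 and 3.09 CPM at day 14. As a share of the family per kb of exon, Gria2 made up 50.6% ± 18 with GFP and 29.2% ± 22.9 with Olig1 at day 7 (SD, n = 3), and 46.6% ± 8.79 and 36.4% ± 5.57 at day 14. In Olig1 day 7 replicate 2 it made up 3.11%, while Gria3 made up 59.2%. The ranges of the virus groups overlapped at both days, and the shares were not tested. Gria1 was the smallest AMPA component by group mean, at 3.54% to 8.73%.

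**Figure D2:**
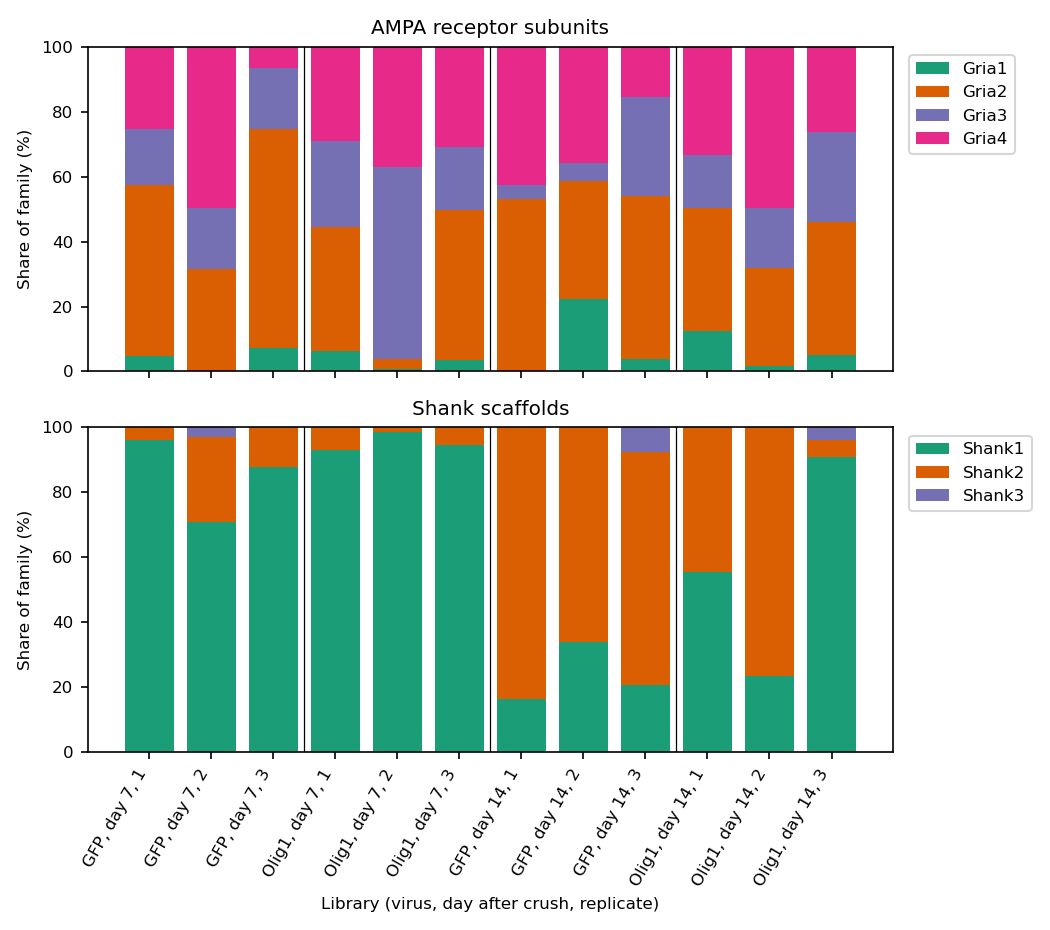
Share of each gene in its family (percent, from CPM per kb of exon) in each of the 12 libraries, for the AMPA subunits (top) and the Shank scaffolds (bottom). Gria2 was 3.11% of the AMPA family in Olig1 day 7 replicate 2, and Shank1 made up 84.9% to 95.4% of the Shank family by group mean at day 7 against 23.6% and 56.6% at day 14.

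NMDA receptors need the Grin1 subunit together with Grin2 or Grin3 subunits. Grin1 (ENSMUSG00000026959, chr2:25291181-25319187) had counts in all 12 libraries, at 1.70 to 46.3 CPM. Of its exons 1307 bases are shared with Grin1os on the opposite strand, which had 21 counts in all. Grin2b, a subunit prominent early in development, ranged from 0 (GFP day 14 replicate 1) to 48.1 CPM (Olig1 day 7 replicate 3), with 37.9 and 20.1 CPM in GFP day 7 replicates 2 and 3. Grin2d reached 31.0 CPM in GFP day 7 replicate 1 and at most 8.19 CPM elsewhere. Both were thus high in separate libraries of different groups, and the edgeR adjusted p was at least 0.484 for every NMDA subunit tested in every comparison.

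Grin2a (ENSMUSG00000059003, chr16:9567898-9995560), the subunit typical of mature synapses, had counts in the 3 Olig1 day 7 libraries and in no other. It stood at 1.47, 0.479 and 3.65 CPM there, 87 counts in all, which is at least 34.3-fold above the level that 0 counts allow in the pooled GFP day 7 libraries. It was too low to be tested. Without Olig1 day 7 replicate 3 the bound was 19.2-fold. Grin2c and Grin3a were at 0 in most libraries, and their highest values were 2.10 CPM (Olig1 day 7 replicate 3) and 1.16 CPM (Olig1 day 14 replicate 1).

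Kainate receptors are channels of their own, and Grik1 marks OFF bipolar cells among other neurons. Grik1 (ENSMUSG00000022935, chr16:87895900-88290265) and Grik5 (ENSMUSG00000003378, chr7:25009849-25072346), whose product assembles with other kainate subunits, were the 2 members lower in every Olig1 library than in every GFP library at day 7. Grik1 was measured at 107, 6.4 and 26.7 CPM in the GFP libraries and at 0.815, 4.07 and 3.45 CPM in the Olig1 libraries. Grik5 was measured at 30.1, 7.99 and 12.9 CPM in the GFP libraries and at 3.91, 1.76 and 3.92 CPM in the Olig1 libraries. The log2 fold changes were -3.59 ± 1.30 and -2.24 ± 1.26 (edgeR adjusted p = 0.268 and 0.448), and neither passed the test. In the same libraries the 8 bipolar cell markers summed to 1097 to 1881 CPM with GFP and to 232 to 456 CPM with Olig1, all 8 with counts in each. Without GFP day 7 replicate 1 the Grik1 value was -2.18.

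At day 14 Grik1 was measured at 8.43, 28.3 and 11.6 CPM in the GFP libraries and at 39.5, 106 and 6.65 CPM in the Olig1 libraries, and the groups overlapped. The change in the virus effect from day 7 to day 14 (interaction) was 5.26 ± 1.76 for Grik1, which did not pass (edgeR adjusted p = 0.355), and bipolar markers stayed lower with Olig1 at day 14 (174 to 420 CPM against 1275 to 5220 CPM). Grik2, an edited kainate subunit, ranged from 0 to 42.6 CPM and stood above 10 CPM in 4 libraries. Grik3 reached 18.5 CPM in Olig1 day 14 replicate 2 and at most 4.62 CPM elsewhere. Grik4 was at most 2.37 CPM. Per kb of exon, Grik2 made up 2.71% ± 3.25 of the kainate subunits with GFP and 44.4% ± 20.4 with Olig1 at day 7 (SD, n = 3), while the shares overlapped at day 14. Grik2 itself overlapped at day 7, at 19.7, 0.109 and 1.35 CPM (GFP) and 23.2, 4.55 and 14.9 CPM (Olig1). Its log2 fold change there was 1.16 ± 2.26 (edgeR adjusted p = 0.899), while Grik1 and Grik5 of the same family were lower with Olig1. These shares were not tested.

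Grid1 (ENSMUSG00000041078, chr14:34820108-35583379) encodes a delta receptor, which binds synaptic organisers rather than acting as a usual glutamate channel. It was measured at 13.9, 11.2 and 0.293 CPM in the GFP libraries and at 6.2, 0.878 and 0.743 CPM in the Olig1 libraries of day 7. The day 14 values were 0, 7.86 and 20.5 CPM (GFP) and 0.0485, 0 and 0.0532 CPM (Olig1). The Olig1 day 14 group thus held 2 counts against 707 in the GFP group, a ratio of 294 (95% exact binomial counting interval 81.0 to 2429) of GFP over Olig1 in the pooled counts. Since GFP day 14 replicate 1 also had 0, the groups overlapped, and the day 14 comparison did not pass the test (edgeR adjusted p = 0.438). Over the mean of both days the log2 fold change was -4.94 ± 1.79 (edgeR adjusted p = 0.196), and its direction turned without the 4 libraries rich in microglia markers (0.46). Without GFP day 14 replicate 3 the day 14 ratio was 131.

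Among metabotropic receptors, Grm5 couples to calcium release and the others measured here lower cyclic AMP. Grm5 (ENSMUSG00000049583, chr7:87584168-88134907) had counts in all 12 libraries, from 0.367 CPM (Olig1 day 14 replicate 2) to 61.3 CPM (GFP day 7 replicate 2). Grm8 reached 21.7 CPM in GFP day 7 replicate 3 and 17.2 CPM in Olig1 day 7 replicate 1, and was below 3.6 CPM in all 6 day 14 libraries. Grm7 ranged up to 14.1 CPM (Olig1 day 7 replicate 2) and was at 0 in 6 libraries. Grm2 had counts in 2 libraries, both Olig1 day 7 (0.815 and 10.5 CPM), Grm3 in 2 libraries, and Grm4 in 4 libraries, all of them Olig1. None of the 3 tested metabotropic receptors passed in any comparison.

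Shank proteins are the large scaffolds at the base of the postsynaptic density. Shank1 (ENSMUSG00000038738, chr7:44310253-44360572) was the one member to pass the test, and it did so between the days. It was measured at 122, 38.8 and 169 CPM in the GFP libraries and at 324, 315 and 542 CPM in the Olig1 libraries of day 7. The day 14 values were 12.4, 9.93 and 5.72 CPM (GFP) and 15.2, 14.1 and 20.2 CPM (Olig1). Every day 7 library lay above every day 14 library, and the Olig1 libraries lay above the GFP libraries at each day. Of its exons 3.22% are shared with 1700008O03Rik, which had 35 counts in all.

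With Olig1 Shank1 fell from day 7 to day 14 by 4.48 on the log2 scale (SE 0.64, edgeR adjusted p = 0.0270). With GFP the log2 change was -3.24 ± 0.61 and did not pass over all genes (edgeR adjusted p = 0.352). The difference between these changes is the interaction, -1.24 ± 0.79 (edgeR adjusted p = 0.642). Averaged over both viruses, a contrast added after the values were seen, the change was -3.86 ± 0.44 (edgeR adjusted p = 0.00156). That call held without any 1 library (adjusted p 0.00111 to 0.0171) and missed the threshold without the 4 libraries rich in microglia markers (0.0501), with GFP day 14 replicates 1 and 3 left out (0.119) or with Olig1 day 14 replicates 1 and 3 left out (0.279). The call with Olig1 alone missed it without any 1 of the Olig1 day 14 replicates (adjusted p 0.139, 0.166 and 0.187 without replicates 1, 2 and 3) and with DESeq2 size factors (0.0537). It was also missed with only the 2 groups in the fit (0.159), without the 4 libraries rich in microglia markers (0.0614) and with Olig1 day 14 replicates 1 and 3 left out (0.744). These were 7 of 16 alternatives, over all of which the log2 change was -4.31 to -4.79.

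Other transcripts moved with the day in the same libraries. CT010467.1, annotated as a ribosomal RNA gene and overlapping Gm42418, lay between 6776 and 26958 CPM at day 7 and between 633 and 1367 CPM at day 14, a log2 change of -3.89 ± 0.44 over both viruses (edgeR adjusted p = 0.00156). Lars2, a mitochondrial leucyl-tRNA synthetase, lay between 127 and 1874 CPM at day 7 and between 7.68 and 37.2 CPM at day 14 (-4.56 ± 0.70, edgeR adjusted p = 0.0248). Of the 10 genes called in that contrast, 5 lower and 5 higher, CT010467.1 and Shank1 had the smallest p. The transcripts of Shank1 shared 0 runs of 20 bases with those of CT010467.1, Gm42418 or Lars2 on either strand (GENCODE M21). This covers exact runs in annotated transcripts only, and how the reads were placed was not tested. The sum of the 4 horizontal cell markers, most of it Calb1, was 617 to 12406 CPM at day 14 and 44.2 to 1517 CPM at day 7, with 1 to 4 of the 4 detected. The days overlapped in this sum, and Calb1 did not pass (edgeR adjusted p = 0.177). The part of ribosomal RNA content, total counts or these markers in the Shank1 values was not tested.

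**Figure D3:**
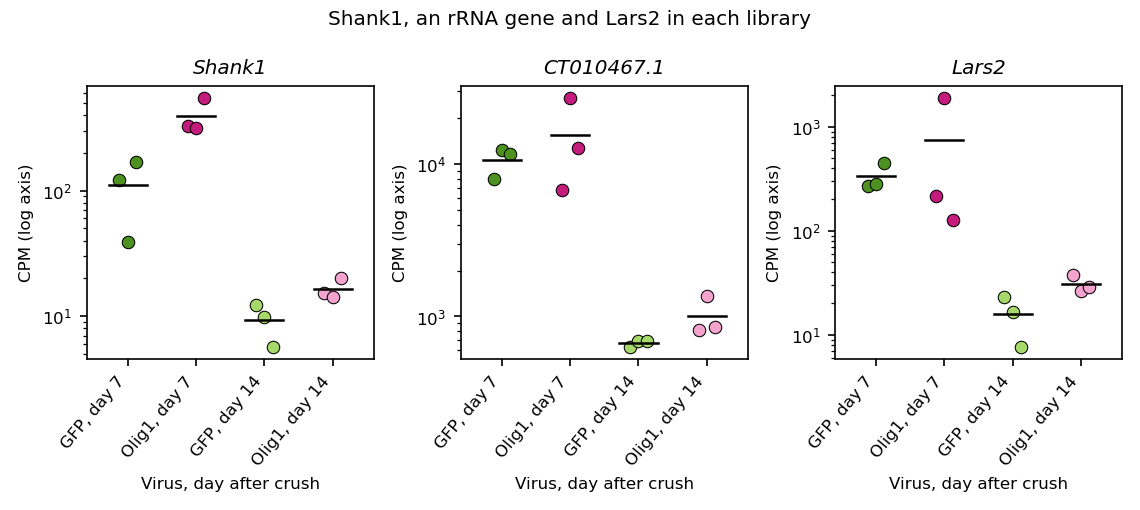
CPM on log axes in each library (points, 3 per group) with the group mean (bar), for Shank1 (left), CT010467.1 (middle) and Lars2 (right). Each of the 3 genes was higher in all 6 day 7 libraries than in all 6 day 14 libraries, for Shank1 5.72 to 20.2 CPM at day 14 against 38.8 to 542 CPM at day 7.

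Shank2 (ENSMUSG00000037541, chr7:144001928-144424494) did not share this pattern, with 4.47 to 31.3 CPM at day 7 and 1.17 to 65.2 CPM at day 14. Its log2 change over both viruses was 0.92 ± 0.86 (edgeR adjusted p = 0.718). Shank3 was at most 1.84 CPM. Shank1 accordingly made up 84.9% ± 12.9 of the family with GFP and 95.4% ± 2.83 with Olig1 at day 7, and 23.6% ± 9.23 and 56.6% ± 33.9 at day 14 (per kb of exon, SD, n = 3). In Olig1 day 14 replicate 3, where Shank2 was lowest, the share of Shank1 was 91.0%.

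Homer proteins bind Grm5 and Shank. Homer2 (ENSMUSG00000025813, chr7:81600481-81707527) was higher in each Olig1 library than in each GFP library at day 7, at low levels. It was measured at 0, 0.164 and 0.293 CPM in the GFP libraries and at 18.5, 3.83 and 5.61 CPM in the Olig1 libraries of day 7, where the log2 fold change was 5.91 ± 2.69 (edgeR adjusted p = 0.350). At day 14 it had 0 counts in the 3 GFP libraries and 2.57, 0.0407 and 0.160 CPM in the Olig1 libraries. The 57 Olig1 counts were at least 22.9-fold above the level that 0 counts allow in the pooled GFP day 14 libraries, and at least 2.37-fold without replicate 1, which held most of them. Replicate 2 held 1 count and replicate 3 held 3, so these libraries are not shown to lie above the GFP libraries at 0. Over the mean of both days Homer2 did not pass (edgeR adjusted p = 0.128).

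Homer1, whose long forms bridge scaffold and receptor, was at 45.3 CPM in GFP day 7 replicate 3 and 22.6 CPM in GFP day 14 replicate 2, and at most 8.43 CPM elsewhere. Homer3 was at most 4.46 CPM. Of its exons 874 bases, 25.4%, are shared with Ddx49 on the opposite strand. Without a stated strand setting, reads in this shared part cannot be told from those of that gene.

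Dlg proteins are the membrane-associated guanylate kinases, of which Dlg4 is PSD-95 and Dlg1 also serves cell polarity. Dlg1 (9.85 to 67.1 CPM) and Dlg2 (3.80 to 64.0 CPM) had counts in all 12 libraries. Dlg4 (ENSMUSG00000020886, chr11:70016942-70047522) was at 57.3, 26.7 and 36.2 CPM in the GFP libraries of day 7 and at 13.0, 134 and 15.7 CPM in the Olig1 libraries. The day 14 values were 0, 15.8 and 7.31 CPM (GFP) and 12.3, 0.448 and 3.4 CPM (Olig1). It was lower at day 14 within each virus without overlap, as was Shank1. In all, 4 members were lower in this way with GFP and 9 with Olig1. The share of all genes was not computed, so nothing about the members as a set is read from these counts. The change of Dlg4 over both viruses, -2.85 ± 1.18, did not pass (edgeR adjusted p = 0.317). Dlg3, on chromosome X, ranged from 0.353 to 30.3 CPM.

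Dlgap proteins tie Dlg to Shank. Dlgap1 (ENSMUSG00000003279, chr17:69969073-70821413) had the smallest ratio of highest to lowest library among the members with counts in every library, from 25.7 to 134 CPM with a median of 75.1 CPM. Dlgap4 (ENSMUSG00000061689, chr2:156613705-156764363) reached 532 CPM in Olig1 day 7 replicate 2 against 122 and 91.3 CPM in the other libraries of that group, and had 0 counts in GFP day 14 replicate 1. Dlgap3 was at 25.1 CPM in GFP day 7 replicate 3 and at most 9.67 CPM elsewhere. None passed in any comparison.

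The main question of the design was which transcripts differed between Olig1 and GFP pools. At day 7 none of the 28 tested members passed in edgeR, where 0.227% of the 14985 genes tested were called. The unadjusted p was under 0.05 for 5 members (17.9%, against 13.9% of all genes), DESeq2 called 3 (Gria3, Homer2 and Shank1) among 954 genes in all, and limma voom 1 (Shank1) among 409. Of the 28, 13 had positive and 15 negative values (46.4% positive, against 49.0% of all genes), with a median of -0.06 against -0.03 over all genes. Shank1 had the smallest adjusted p, 0.185, at 2.09 ± 0.58.

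In libraries that did not overlap at day 7, Gria3, Gria4, Shank1 and Homer2 were higher with Olig1, 4 of the 28 tested members (14.3%) against 9.4% of all genes tested. Grin2a, which was not tested, was higher too. Grik1 and Grik5 were lower (7.14% against 9.01%). At day 14 the libraries of Shank1 and, by the values alone, of Homer2 were ordered in this way (7.14% against 7.78%), and no member was lower (4.12% of all genes). For Homer2 this order rests on 1 count against 0, within the limit that 0 counts allow. These shares at each day were near the background of all genes. By the values alone, 2 of the 28, Shank1 and Homer2, were higher at both days (7.14%), against 1.37% of all genes by the same rule. The day 14 limit of Homer2 applies here too. In these same day 7 libraries ganglion cell markers were higher with Olig1, by the sums given above. The 10 amacrine cell markers were higher too, at 906 to 2072 CPM against 85.1 to 137 CPM with GFP. Rod markers were lower with Olig1 (598 to 1294 CPM against 12528 to 58385 CPM), as were the 9 cone markers (20.6 to 109 CPM against 1404 to 1941 CPM). The part of any of these cell types in the values of the members was not tested.

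At day 14 none of the 28 passed in edgeR (0.04% of all genes called). The unadjusted p was under 0.05 for 2 (7.14%, against 10.4% of all genes). DESeq2 called 2 (Grid1 and Homer2) among 743 genes in all, and limma voom 0 among 30. The median was 0.49 against 0.09 over all genes, the same with Homer2 at its bound. Shank1 stood at 0.85 ± 0.56 (edgeR adjusted p = 0.741). Without the 4 libraries rich in microglia markers edgeR called Dlgap4. This leaves 1 GFP day 14 library, the one where Dlgap4 had 0 counts, and the share of all genes called there is not given here.

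Over the mean of both days none of the 28 passed in edgeR (0.654% of all genes called), with 5 at an unadjusted p under 0.05 (17.9%, against 14.9% of all genes). DESeq2 called 4 (Gria3, Grid1, Homer2 and Shank1) among 1153 genes in all, and limma voom 1 (Homer2) among 453. Shank1 stood at 1.47 ± 0.40 (edgeR adjusted p = 0.105), Gria3 at 2.18 ± 0.69 (0.145) and Gria4 at 1.60 ± 0.56 (0.173). Without Olig1 day 7 replicate 2 Gria3 was 1.04 and Gria4 0.89. The interaction of virus and day called 0 members in edgeR, with 0% of all genes called, 2 members at an unadjusted p under 0.05 (7.14%, against 9.90% of all genes), and 0 member calls by DESeq2 (527 genes in all) and by limma voom (0 genes).

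**Figure D4:**
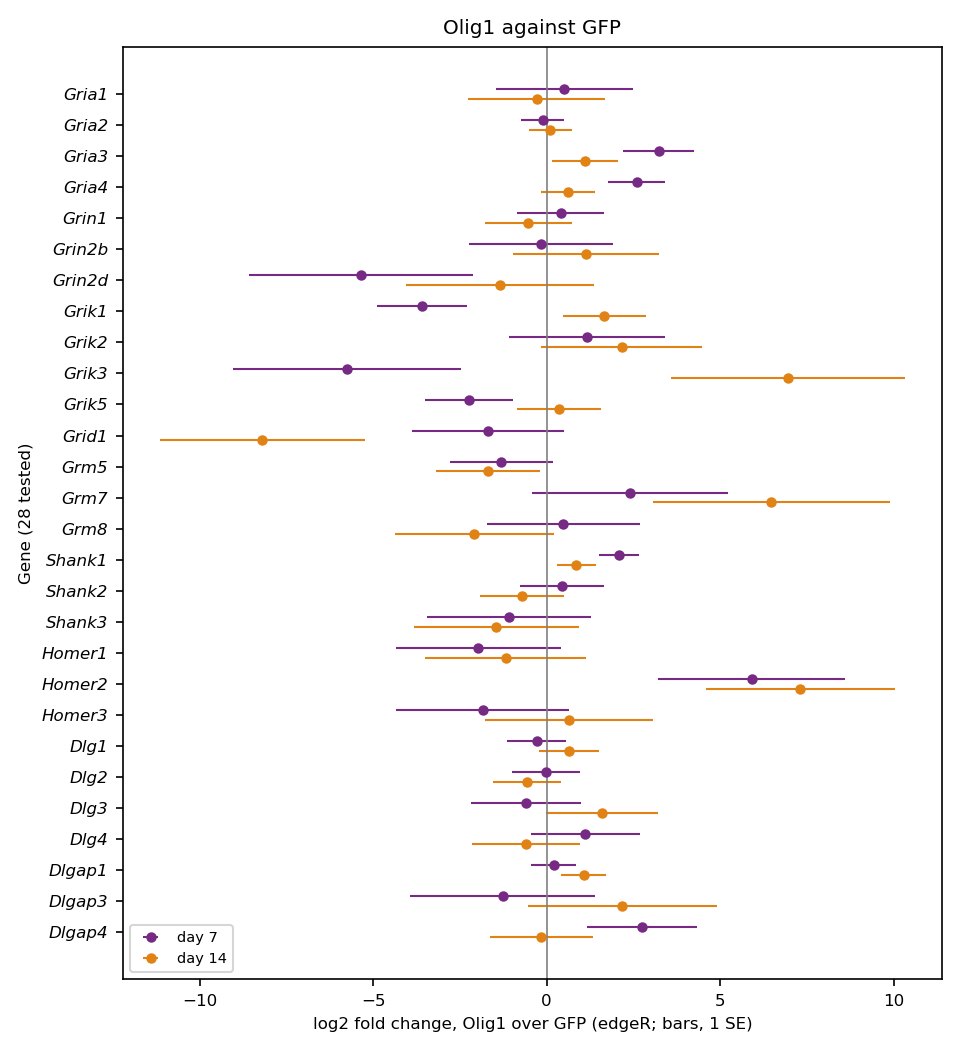
Log2 fold change of Olig1 over GFP (x axis; points, with bars of 1 SE) for the 28 tested members at day 7 and day 14. No point passed an adjusted p of 0.05; Shank1, at 2.09 and 0.85, has the narrowest bars, and values of genes with a group near 0 counts, such as Homer2, Grik3, Grid1 and Grm7, depend on the prior count of the fit and are no estimate of size.

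Between the days, the comparison within GFP called 0 members in edgeR (0% of all genes called), with 1 at an unadjusted p under 0.05 (3.57%, against 10.3% of all genes). DESeq2 called 1 (Shank1) among 646 genes in all, and limma voom 0 among 18. Within Olig1 it called Shank1 alone of the 28 (0.0334% of all genes called), and DESeq2 called Gria3 and Grik1 as well, among 626 genes in all. Gria3 stood at -3.03 ± 1.02 and Grik1 at 4.12 ± 1.33 (both edgeR adjusted p = 0.371), and Gria3 was -0.91 without Olig1 day 7 replicate 2. Averaged over both viruses Shank1 was again the one member called (0.0667% of all genes). It was also the only member with all 6 day 14 libraries below all 6 day 7 libraries, as in 0.827% of all genes, and no member was higher in this way (0.214% of all genes).

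With GFP 21 of the 28 had negative values from day 7 to day 14, with a median of -0.61 against -0.14 over all genes. With Olig1 16 were negative, with a median of -0.55 against -0.01. Positive values made up 25% of the members and 45.5% of all genes with GFP, and 42.9% and 49.5% with Olig1. The comparisons of the viruses at each day and of the days within each virus use the same libraries. DESeq2 size factors moved the median of all genes by -0.11 with GFP and by -0.18 with Olig1, and the members' medians to -0.73 and -0.66.

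**Figure D5:**
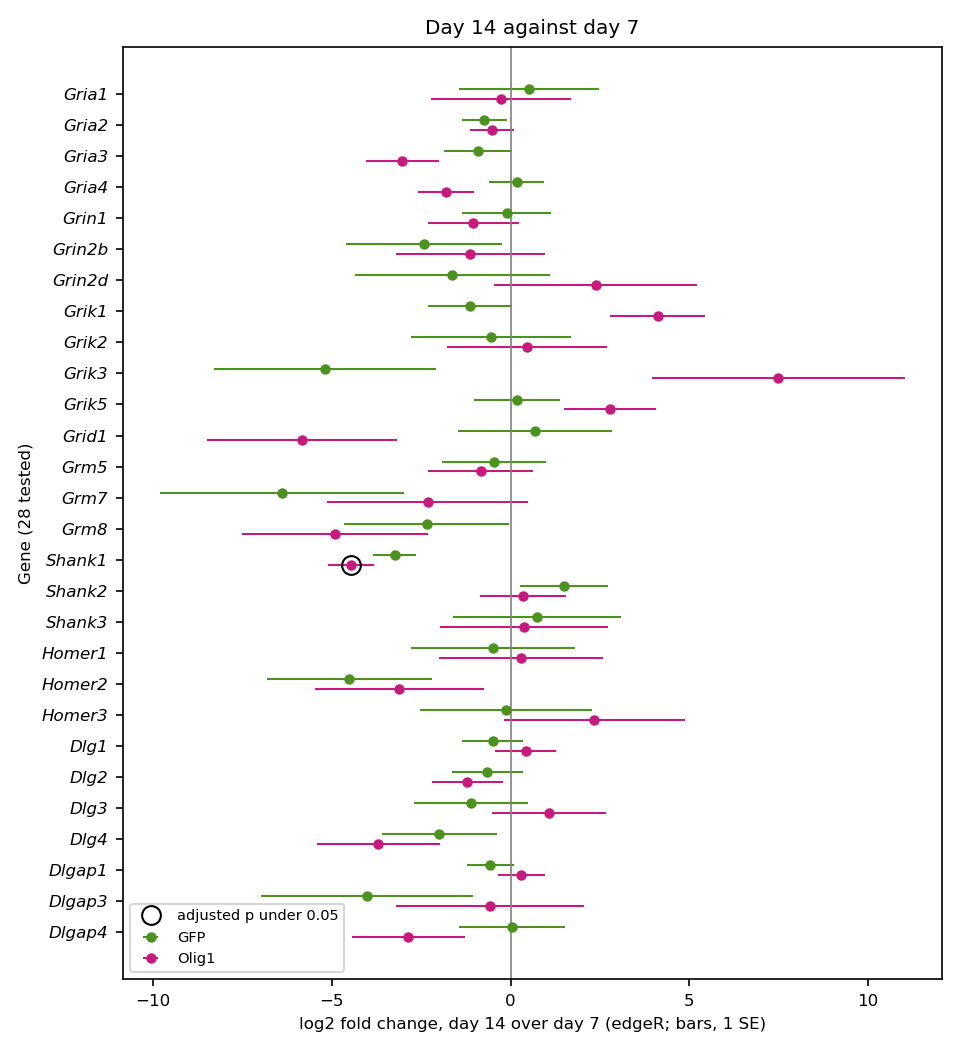
Log2 fold change of day 14 over day 7 (x axis; points, with bars of 1 SE) for the 28 tested members, within GFP and within Olig1. Shank1 within Olig1, at -4.48, is the one circled value, with an adjusted p under 0.05; values of genes with a group near 0 counts depend on the prior count.

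Other genes of the glutamate synapse were taken from 6 lists of 64 genes in all, of which 56 were tested. Over the mean of both days 3 were called higher with Olig1 and 0 lower, and 38 of the 56 had positive values. Of all 14985 genes tested 57 were called higher and 41 lower in this comparison, and 51.9% had positive values. Slc17a6 was among the 3.

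Slc17a6, which loads glutamate into vesicles of ganglion cells and is 1 of 3 such transporters, had 92.6, 30.8 and 36.0 CPM in the Olig1 libraries of day 7 and 0, 25.7 and 1.06 CPM in those of day 14. With GFP it had 2 counts in all 6 libraries together. Over the mean of both days it was higher with Olig1 than with GFP (edgeR adjusted p = 0.0326), and the ratio at day 7 was 1552 (counting interval 429 to 12821). Slc17a6 is also in the ganglion cell marker list. With 1 library left out, the Slc17a6 call held without Olig1 day 7 replicate 3, GFP day 14 replicate 1 or Olig1 day 14 replicates 1 or 3, and was lost without each of the others (adjusted p of up to 0.104). In all, 11 of 20 alternatives lost the call (up to 0.155).

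No gene of the lists of auxiliary subunits, of receptor trafficking and signalling or of inhibitory receptors passed in edgeR. The counts of positive values below, over the mean of both days, stand beside 51.9% positive among all genes tested. Of 14 AMPA and kainate auxiliary subunits 10 were tested and 9 had positive values over both days, led by the TARP genes Cacng5 (3.88 ± 1.51, edgeR adjusted p = 0.234) and Cacng4 (2.52 ± 1.15, 0.316). Of 13 genes of receptor trafficking and signalling 12 were tested and 9 were positive. Among them, Iqsec2, an exchange factor at the postsynaptic density, stood at 6.15 ± 1.82 (edgeR adjusted p = 0.126), and Camk2a was at 0 in the 6 GFP libraries and at 0 to 7.07 CPM with Olig1. Of 20 inhibitory receptor and gephyrin genes 18 were tested and 9 were positive. The lowest p there belonged to the rho GABA receptor genes Gabrr2 (-3.56 ± 0.79, edgeR adjusted p = 0.0531) and Gabrr1 (-3.25 ± 1.07, 0.158), and neither passed. Bipolar cells express both genes, and the part of the lower bipolar markers given above in these values was not tested.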

How the data were processed

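Polyadenylated RNA of 12 pools of picked retinal cells was amplified with the SMART-Seq HT kit and sequenced, per the labels' protocols. The values used were raw counts per Ensembl gene, deposited by the authors and made with FastQC, HISAT2 and HTSeq on mm10, per the submitters' processing notes. Their versions, the strand setting and the annotation release: not given in the sources used here. The series table was used, because the deposited tables of 4 single libraries lacked 270 to 2853 genes. The labels give all libraries a virus time of 14 days. The labels speak of batches without assigning libraries, so batch entered no test.

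Symbols, exon lengths and coordinates came from GENCODE M21 (GRCm38). Of 54232 genes 54079 had a name there. Counts were tested with edgeR 4.0.16 in R 4.3.3 (quasi-likelihood, robust, TMM, filterByExpr on the groups, minimum count 10), in 1 fit of 12 libraries and 4 groups without covariates, with Benjamini-Hochberg adjustment over 14985 genes and a threshold of 0.05. The SE is the log2 fold change divided by the square root of F. The common biological coefficient of variation was 1.35. Folds against groups with 0 counts are bounds from 3 counts pooled over the group, and with 1 to 3 counts ratios with 95% exact intervals. Alternatives used DESeq2 1.42.0 and limma 3.58.1 (voom with sample weights), other filters and libraries left out. The fit was tested on simulated data. The members, the lists of other genes and markers and the rule for named genes were chosen with earlier results of these data known. The rule named all 35 members, Olig1, and from each other list up to 4 genes called in any of 6 contrasts or else the 2 with the smallest p over the mean of both days. CT010467.1, Lars2, Calb1 and the contrast of days over both viruses were chosen after values were seen, as was leaving out Olig1 day 14 replicates 1 and 3. Where this left a group with 1 library, that library is assumed to vary like the other groups. Tables were made with pandas 2.3.3 (Python 3.11.15) and plots with matplotlib 3.10.9. Some genes of the other lists are not reported here.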

Additional observations from a re-analysis of the deposited data

How the results depend on the processing

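Counts of members called depended on the tool. DESeq2 called 3, 2, 4, 0, 1 and 3 of the 28 members for Olig1 against GFP at day 7, at day 14, over the mean of both days, for the interaction, and for day 14 against day 7 with GFP and with Olig1, and limma voom called 1, 0, 1, 0, 0 and 1, against 0, 0, 0, 0, 0 and 1 in edgeR. Over all genes DESeq2 called 954, 743, 1153, 527, 646 and 626, limma voom 409, 30, 453, 0, 18 and 292, and edgeR 34, 6, 98, 0, 0 and 5. With no filter edgeR called Gria3 over the mean of both days and Shank1 for the days with GFP. Leaving out the 4 libraries rich in microglia markers left 1 GFP day 14 library. In that fit Dlgap4 passed at day 14, over the mean of both days and for the days with GFP. Dlg4 and Dlgap4 passed for the days over both viruses, and no member passed for the days with Olig1. The numbers of all genes called under these settings are not given here, so these calls stand without a background. The Shank1 call for the days with Olig1 gave a count of 0 with DESeq2 size factors, with only the 2 groups in the fit and without Olig1 day 14 replicates 1 and 3, and of 0 to 1 with each library left out in turn. Over both viruses the count was 0 without GFP day 14 replicates 1 and 3 or Olig1 day 14 replicates 1 and 3. The cause was not tested.

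The sign of Gria2 at day 7 turned with limma voom (0.036), without GFP day 7 replicate 3 (0.50), without Olig1 day 7 replicate 2 (0.22) and without the 4 microglia-rich libraries (0.25), and with 1 library left out it ranged from -0.54 to 0.50. Grid1 over the mean of both days was 0.46 without those 4 libraries, where GFP day 14 was left with a library at 0 counts. The other log2 changes of members recomputed kept their sign under every alternative run for them. In counts not divided by length the Gria2 share was 65.2% with GFP and 54.3% with Olig1 at day 14.

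The labels give every group the replicate numbers 1 to 3. Same-numbered libraries did not deviate together (correlations of -0.07 to 0.05 over 18 pairs, 0 above 0.1), and 8 of 12 libraries were on average closer to libraries of their own number. With the replicate block edgeR called 0 members for the viruses, the interaction and the days with GFP and 1, Shank1, for the days with Olig1 and over both viruses (adjusted p = 0.00910 for the last), and over all genes 29, 1 and 64 for the viruses at day 7, at day 14 and over both days. It ended the call of Slc17a6 (0.0684) and brought Gabrr2 below the threshold (0.0226). Members at 0 counts in a library are limited by depth, to 0.109 to 0.239 CPM.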
